A study of Mus musculus with 14 samples.

Results

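The question put to these data was which genes respond to hepatoma-conditioned medium more, or less, when Ezh2 is deleted. It was addressed with the difference of the conditioned medium response between genotypes, (KO in conditioned medium minus KO in control medium) minus (WT in conditioned medium minus WT in control medium). All 14 of the 14 libraries of the study entered it. They came from mouse bone marrow-derived macrophages (BMDMs), which are macrophages grown out of marrow cells with L929 cell medium as the source of growth factor. KO cells were from Ezh2 fl/fl;LysM-Cre+/- mice, in which Cre expressed from the lysozyme M gene recombines floxed Ezh2 in myeloid cells, and WT cells were from littermate controls. Cells of each genotype spent 24 h in DMEM complete medium (control) or in CM, the conditioned medium of Hepa1-6, an established mouse hepatoma line. There were 4 WT libraries in control medium, 4 WT libraries in CM, 3 KO libraries in control medium and 3 KO libraries in CM. The Cre and floxed alleles of the littermates, the strain, and the age and sex of the animals are not given in the sources used here. No group received medium conditioned by another cell type. The labels do not say that libraries of a group came from separate animals or cultures, so the p-values measure the spread between these libraries, which may be technical.

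EZH2 is the catalytic subunit of Polycomb repressive complex 2 (PRC2), which methylates lysine 27 of histone H3, a mark of repressed genes. In macrophages PRC2 is known for silencing developmental regulators and for setting the range of some inflammatory and differentiation genes. Medium from tumor cells carries growth factors, cytokines, metabolites and lipids, and macrophages exposed to it are known to change their lipid metabolism, antigen presentation and chemokine output.

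Ezh2 itself was read first, as a check of the labels. Over the whole gene, Ezh2 in control medium was at 19.8, 21.5, 26.3 and 24.4 CPM in WT and 18.7, 18.8 and 18.2 CPM in KO, and in CM at 31.4, 37.8, 34.9 and 38.6 CPM in WT and 27.8, 24.6 and 28.9 CPM in KO (CPM, counts scaled to a library total of 1 M). The KO libraries were below every WT library in both media, but the gene-level difference was modest. The exons of 81 and 85 bases that match exons 18 and 19 carried 118.4% ± 28.3 (SD, n = 4) of the per-base count of the other Ezh2 exons in WT control, 100.9% ± 17.9 (n = 4) in WT CM, 14.2% ± 13.1 (n = 3) in KO control and 12.2% ± 5.3 (n = 3) in KO CM. Some entries among those other exons were left out of the comparison. Ezh2 mRNA rose with CM by 0.64 ± 0.07 in WT and 0.55 ± 0.08 in KO on the log2 scale, and this response did not differ detectably between genotypes (-0.09 ± 0.11 (SE, adjusted p = 0.742)). Lyz2, the lysozyme M gene into which this Cre is inserted, stood at 23524, 24180.2, 20664 and 19195 CPM in WT and 10297, 10324 and 10043 CPM in KO in control medium and 21118, 19051, 21709 and 19954 CPM in WT and 9313, 9569 and 9553 CPM in KO in CM, with a difference of response of -0.02 ± 0.08 (SE, adjusted p = 0.948).

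Libraries held 40.2 to 85.8 M exon counts. WT libraries 3 and 4 of both media were the deepest at 80.4 to 85.8 M, and they stood apart from the other 10 libraries. On the second principal component of log2 CPM, which held 14.9% of the variance, they lay at 29.0 to 31.8 and the others between -22.2 and -3.3. The share of each gene's count by exon separated the same 4 libraries, so they were treated as a library set of their own. No label names a batch, so what sets these 4 apart is not known, and no KO library belongs to that set. The macrophage label was borne out by 24 of 24 core macrophage markers with counts in every group, whose CPM summed to 71190.0 to 74500.0 in WT control, 60050.0 to 69120.0 in WT CM, 57000.0 to 57960.0 in KO control and 48570.0 to 50320.0 in KO CM. Such sums are weighted to the most abundant genes, and the lower sums in KO are not read as a change of cell type. The 18 lymphocyte markers summed to at most 4.15 CPM in any library. The 20 hepatoma and hepatocyte markers summed to 724 to 791 CPM in WT control, 442 to 484 in WT CM, 779.5 to 885 in KO control and 408 to 465 in KO CM, nearly all of it from the transferrin gene Trf. Alb, Ahsg, Fgb, Fgg and Gpc3 of that list were at 0 in all 14 libraries. Of its 3 tested members, 0 were called with edgeR and 2 were lower for the difference at an unadjusted p below 0.05, and their part in the results was not tested. In bulk RNA, a change in the number of cells of a type and a change in RNA per cell cannot be told apart.

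In the design without a library-set term no gene passed the test for a genotype difference in CM response, and 164 did with it, by a median of 0.39 on the log2 scale. Fitted with 4 group means and no term for the library set, edgeR called 0 of 13311 genes (0% called at a Benjamini-Hochberg adjusted p below 0.05), and the smallest adjusted p was 0.110. At an unadjusted p below 0.05 there were 1050 genes (7.89%), 551 higher in KO (4.14%) and 499 lower (3.75%). DESeq2 called 84 genes and limma-voom, with a quality weight for each library, 27 in the same design. With a term for WT libraries 3 and 4, edgeR called 164 genes (1.23%), of which 87 responded higher in KO (0.654% of those tested) and 77 lower (0.578%). At an unadjusted p below 0.05 there were then 2149 genes (16.1%), 1102 higher (8.28%) and 1047 lower (7.87%). Scaling by library totals alone, which moved the median over all genes to -0.02, gave 53 higher among 149 called. Both media hold WT libraries of both sets in equal number, so the term leaves the estimate nearly where it was and removes the set from the spread. Agbl5, for instance, had -0.91 ± 0.15 (adjusted p = 0.11) without the term and -0.91 ± 0.13 (SE, adjusted p = 0.00229) with it. The 2 WT sets did not differ detectably from each other in their CM response: edgeR called 0 genes and 695 (5.22%) had an unadjusted p below 0.05. Values below are from the fit with the term unless stated, as log2 differences ± SE.

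The response itself was broad. In WT, CM changed 6561 genes (49.3%), raising 3370 (25.3%) and lowering 3191 (24%). In KO it changed 6692 (50.3%), raising 3425 (25.7%) and lowering 3267 (24.5%). These comparisons share their libraries with the difference, so their values are set beside it and are not a second line of evidence. Of the 164 genes, 71 rose with CM in both genotypes with the larger estimate in KO, 36 fell in both with the larger fall in KO, 9 rose less and 3 fell less in KO. Another 32 had an estimate above 0 in WT and below 0 in KO, and 13 the reverse. Among the 164, 7 genes reached a 2-fold difference. Genes whose response was higher in KO often started lower: of the 87, 45 were called lower in KO than in WT in control medium and not called in CM (3.86% of all genes were called lower in control medium). Another 28 were called higher in CM and not in control medium (4.48% of all genes were called higher in CM). Genes whose response was lower in KO mirrored this, with 37 of the 77 called higher in KO in control medium only (3.94% of all genes) and 25 called lower in KO in CM only (2.46%). A gene chosen for a difference of responses has, in these same libraries, a genotype difference in at least 1 medium. The direction of that difference follows from the sign of the difference of responses. Counts above the shares of all genes therefore follow from the selection, and those shares include genes called in both media. The counts describe only in which medium the genotypes parted. These genotype comparisons are, through the term, against WT libraries 1 and 2.

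**Figure D1:**
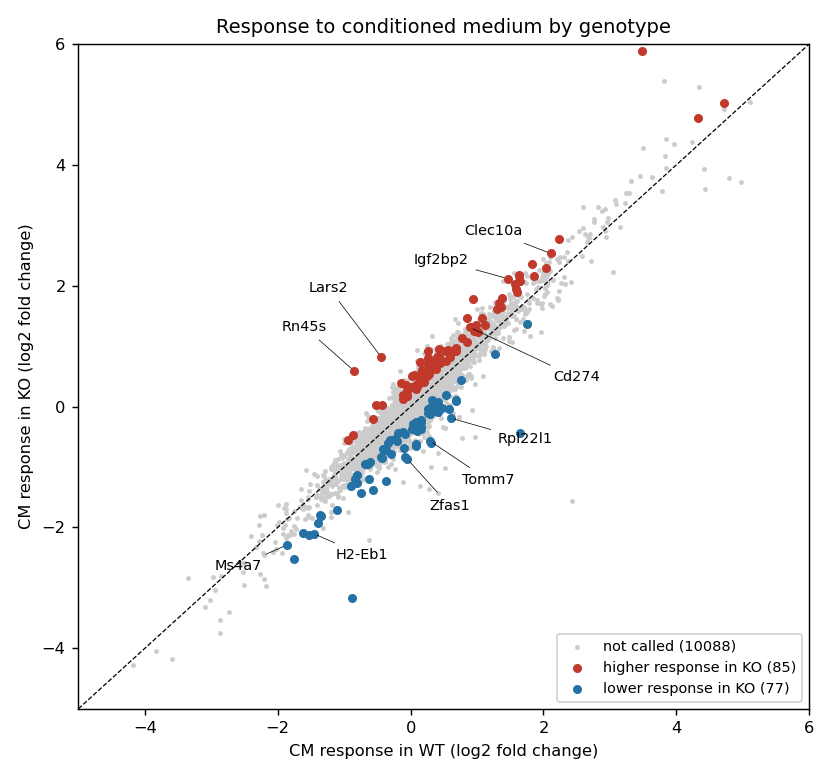
Log2 fold change with CM in WT (horizontal) against that in KO (vertical) for 10250 genes averaging at least 4 CPM in a group, from the fit with the library-set term; the dashed line marks equal responses, and 13 uncalled genes lie outside the axes. The 85 genes called higher in KO (red) and 77 called lower (blue) lie above and below that line.

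Cholesterol synthesis had the largest share of called members among the 58 program lists. CM raised 26 of 27 tested genes of cholesterol synthesis and uptake in WT and 26 in KO, and 7 of the 27 responded higher in KO, none lower. Among the 7 were Sqle, Cyp51, Msmo1 and Srebf2. At an unadjusted p below 0.05, 15 of 27 were higher and 0 lower. The median difference was 0.23, beside 0.0035 over all 13311 genes. It was 0.24 against WT libraries 1 and 2 and 0.21 against WT libraries 3 and 4.

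Srebf2, the transcription factor that drives this pathway, was in control medium at 71.8, 71.5, 63.6 and 62.9 CPM in WT and 72.3, 71.7 and 68.6 CPM in KO, where the genotypes overlapped. With CM, Srebf2 was at 143, 139, 132 and 130.3 CPM in WT and 165, 168 and 169.8 CPM in KO, with every KO library above every WT library. It responded by 1.02 in WT and 1.24 in KO, a difference of 0.23 ± 0.05 (SE, adjusted p = 0.0439). Insig1, which holds the SREBP complex in the endoplasmic reticulum when sterol is plentiful, had 0.23 ± 0.07 (SE, adjusted p = 0.11) and was not called.

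Among the enzymes of the pathway, Sqle kept its call in all 14 fits that left out a library, beside 5 for Cyp51, 2 for Msmo1 and 1 for the regulator Srebf2. With the trend over transcript length removed Srebf2 was not called. Sqle, the squalene epoxidase (chr15:59315077-59331192, plus strand, GRCm38), was at 15.9, 14.9, 16.3 and 15.4 CPM in WT and 10.4, 10.8 and 10.1 CPM in KO in control medium. Sqle in CM was at 44.5, 42.4, 53.8 and 52.4 CPM in WT and 50.6, 48.3 and 41.8 CPM in KO. The KO libraries were below all WT libraries in control medium and overlapped them in CM (0.54 ± 0.10 (SE, adjusted p = 0.0162)). The lanosterol demethylase gene Cyp51 had 0.46 ± 0.10 (SE, adjusted p = 0.0409) and the methylsterol oxidase gene Msmo1 0.30 ± 0.07 (SE, adjusted p = 0.0451). Mvd and Fdft1, also of the pathway, had -0.01 and -0.05. From the most-counted exon alone Sqle stayed called, with 0.0103 as the edgeR adjusted p.

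Among genes that carry sterol out of the cell, 1 differed, in the other direction. Of 18 tested genes of sterol efflux and LXR targets, 1 was called lower in KO and none higher, 6 were lower and 1 higher at an unadjusted p below 0.05, and the median was -0.12. The median was -0.07 without WT control library 1 and without KO CM library 3, -0.08 without WT control library 4, and -0.06 with limma-voom. The called gene was Abca1, the exporter that loads cholesterol on apolipoprotein A-I, at 572, 572, 564 and 583 CPM in WT and 610.0, 623 and 553 CPM in KO in control medium and 432, 433, 401 and 454 CPM in WT and 380.1, 365 and 354 CPM in KO in CM. All KO libraries were below all WT libraries in CM only, and the difference was -0.29 ± 0.07 (SE, adjusted p = 0.0451), a call lost in 10 of 14 fits that left out a library. Pltp, Mylip and Nr1h3, the last of which encodes LXR alpha, had -0.27, -0.26 and -0.31 and were not called. Lpl, the lipoprotein lipase of the lipid uptake list, fell with CM less in KO: 2941, 2668, 2669 and 2811 CPM in WT and 3187, 3029.6 and 3301 CPM in KO in control medium and 1668, 1582, 1488 and 1377 CPM in WT and 2323, 2135 and 2429.7 CPM in KO in CM, a difference of 0.39 ± 0.07 (SE, adjusted p = 0.0153). Without KO control library 2 its adjusted p was 0.0542.

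**Figure D2:**
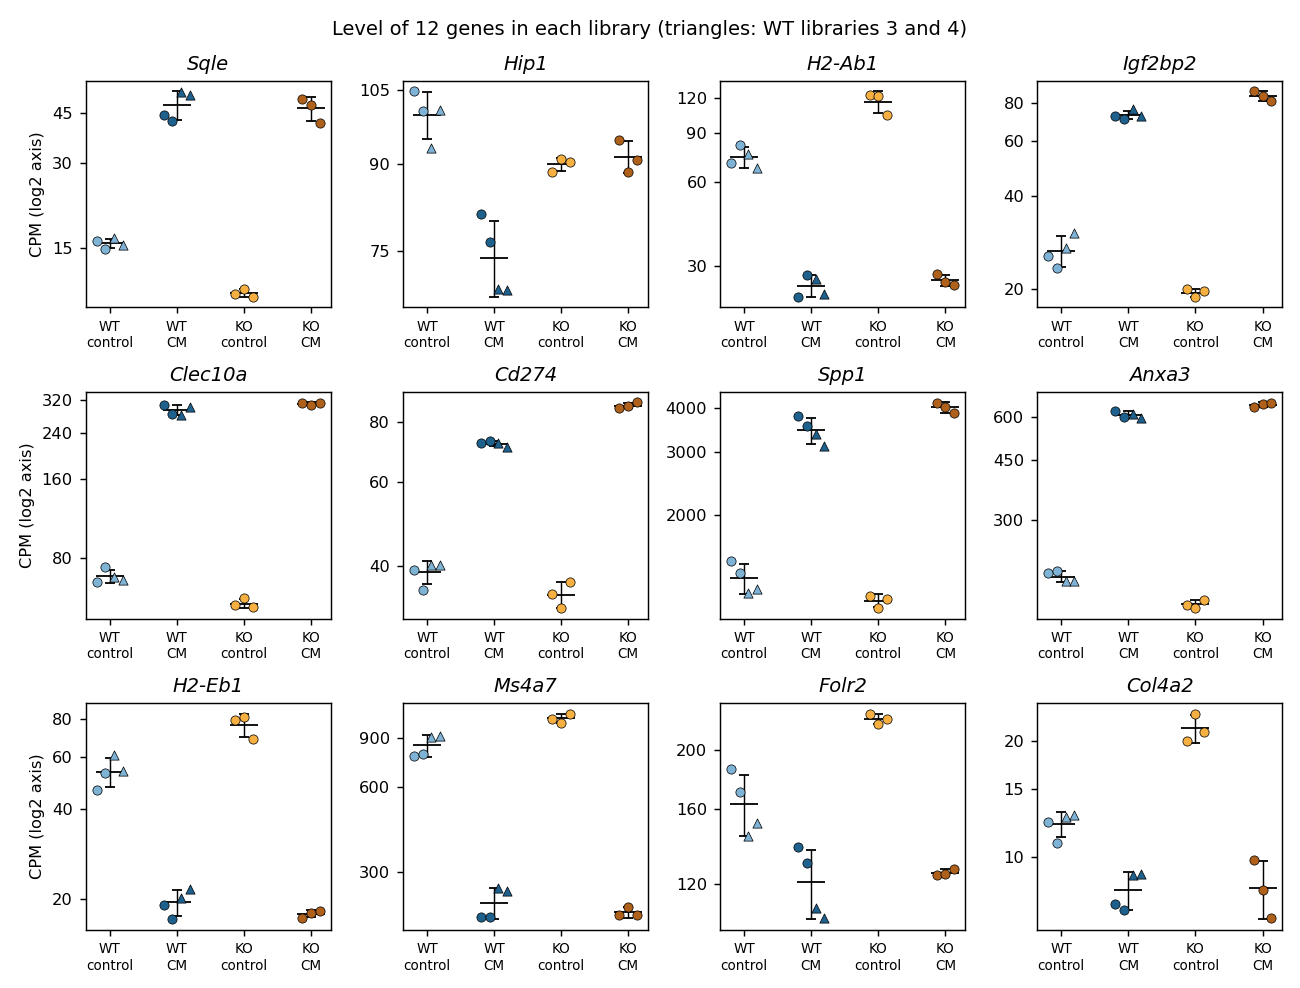
CPM of 12 genes on log2 axes in each of the 14 libraries, with the group mean and SD (bars); triangles mark WT libraries 3 and 4. Hip1, Igf2bp2, Spp1 and Anxa3 are below WT in KO control and above it in KO CM, and H2-Eb1, H2-Ab1, Ms4a7, Folr2 and Col4a2 are above WT in KO control and overlap it in CM.

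Of DNA replication genes, 2 passed the test for the difference. Of 60 tested genes of DNA replication and S phase, 35 were called higher and 6 lower with CM in KO, and 21 higher and 9 lower in WT. The difference was above 0 for 53 of the 60, beside 51.0% of all genes, with a median of 0.23. At an unadjusted p below 0.05, 23 were higher and 1 lower. Called were Rad51ap1, a gene of homologous recombination, and Rrm1, the large subunit of ribonucleotide reductase. Rrm1 was at 47.3, 45.1, 42.0 and 42.7 CPM in WT and 48.1, 46.7 and 49.4 CPM in KO in control medium. Rrm1 in CM was at 54.6, 59.7, 53.1 and 57.2 CPM in WT and 74.8, 74.5 and 87.7 CPM in KO, where the KO libraries lay above all WT libraries (0.37 ± 0.08 (SE, adjusted p = 0.0368)). Rad51ap1 was at 2.50, 2.45, 1.98 and 2.02 CPM in WT and 2.16, 1.72 and 1.86 CPM in KO in control medium. Rad51ap1 in CM was at 4.09, 4.57, 3.97 and 4.40 CPM in WT and 6.06, 7.02 and 6.62 CPM in KO (0.84 ± 0.17 (SE, adjusted p = 0.0262)). Leaving out 1 library ended the Rrm1 call in 8 of 14 fits and the Rad51ap1 call in 5, and neither was called from the most-counted exon alone.

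Members of the replicative helicase had estimates in the same direction without passing the test, with 0.37 for Mcm3, 0.44 for Mcm7, 0.64 for Mcm10 and 0.84 for Cdc45 (adjusted p = 0.0645, 0.101, 0.0602 and 0.0631). Over the list, the median log2 level relative to each gene's mean was -0.10 ± 0.04 (SD, n = 4) in WT control, -0.01 ± 0.06 (n = 4) in WT CM, -0.08 ± 0.05 (n = 3) in KO control and 0.24 ± 0.05 (n = 3) in KO CM. The 3 KO CM libraries lay above the other 11. Of 61 mitotic genes, 57 rose with CM in WT and 61 in KO. Their median level was higher in KO in both media. It was -0.83 ± 0.11 (SD, n = 4) in WT control and -0.42 ± 0.10 (n = 3) in KO control, then 0.435 ± 0.12 and 0.998 ± 0.12 in CM. The median difference of responses was 0.11 (0.005 to 0.17 over fits that left out a library). At an unadjusted p below 0.05, 14 were higher and 5 lower, and 1 gene was called for the difference. That gene was Cdca8, a subunit of the chromosomal passenger complex, at 14.96, 12.7, 11.3 and 13.4 CPM in WT and 12.5, 11.0 and 13.7 CPM in KO in control medium and 22.5, 25.0, 21.2 and 25.3 CPM in WT and 31.7, 32.6 and 37.7 CPM in KO in CM (0.61 ± 0.14 (SE, adjusted p = 0.0379); the call was lost in 8 of 14 fits that left out a library). Rbl1, which encodes the pocket protein p107, a repressor partner of E2F factors, was at 32.4, 32.4, 35.2 and 32.5 CPM in WT and 27.5, 28.9 and 25.6 CPM in KO and 36.4, 35.96, 37.7 and 35.1 CPM in WT and 39.3, 39.6 and 39.2 CPM in KO in the 2 media in turn (0.39 ± 0.08 (SE, adjusted p = 0.0162)). From the most-counted exon neither Cdca8 nor Rbl1 was called (edgeR adjusted p = 0.383 and 0.104). The 14 erythroid and megakaryocyte markers summed to 19.4 to 24.2 CPM in WT control, 51.9 to 82.7 in WT CM, 27.7 to 33.6 in KO control and 95.2 to 136 in KO CM, with Car1 at 0 in every library. The 19 neutrophil and granulocyte precursor markers summed to 82.4 to 102, 131 to 148, 108 to 116 and 189 to 215 in the same order. A sum is weighted to its most abundant genes. The median difference of responses was -0.37 over the 4 tested erythroid and megakaryocyte genes (-0.58 to 0.38 over fits that left out a library). Over the 11 tested neutrophil genes it was -0.14 (-0.55 to 0.10). Of the 2 lists, 0 members were called. At an unadjusted p below 0.05, 1 was higher and 1 lower in the first, and 1 higher and 2 lower in the second. The part of such cells in the replication genes was not tested.

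**Figure D3:**
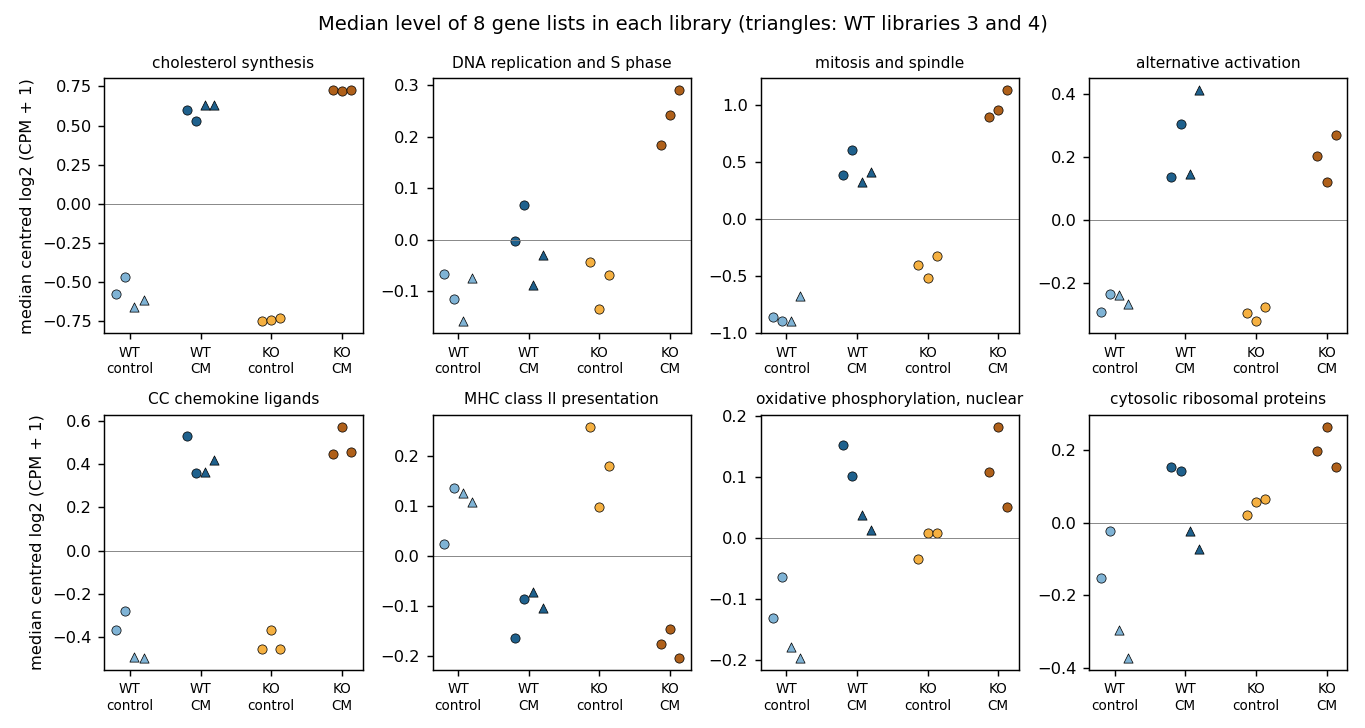
Median over the tested members of 8 gene lists of log2 (CPM + 1) after subtraction of each gene's mean over all libraries, by library; triangles mark WT libraries 3 and 4. For DNA replication the 3 KO CM libraries lie at 0.18 to 0.29 and the other 11 at or below 0.07, while for cholesterol synthesis KO lies lowest in control medium and highest in CM.

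Igf2bp2, Spp1, Anxa3 and Psmd8 rose with CM in both genotypes and rose further in KO. Igf2bp2, which encodes an mRNA-binding protein (chr16:22059009-22163299, minus strand), was at 25.4, 23.3, 27.1 and 30.4 CPM in WT and 19.9, 18.7 and 19.6 CPM in KO in control medium. Igf2bp2 in CM was at 72.4, 71.1, 76.2 and 72.4 CPM in WT and 87.2, 84.1 and 81.3 CPM in KO. KO lay below all WT libraries in the first and above all in the second. The difference, 0.66 ± 0.08 (SE, adjusted p = 0.00111), was among the smallest p-values and was 0.56 against WT libraries 1 and 2 and 0.75 against WT libraries 3 and 4. Without the term it was 0.66 ± 0.10 (adjusted p = 0.11). Spp1, the secreted phosphoprotein osteopontin (chr5:104435118-104441050, plus strand), went from 1491, 1375, 1211 and 1247 CPM in WT and 1191, 1098 and 1168 CPM in KO in control medium to 3799, 3565, 3366 and 3123 CPM in WT and 4123, 4030.2 and 3867 CPM in KO in CM, again crossing from below to above WT (0.42 ± 0.06 (SE, adjusted p = 0.00203)). Anxa3, a calcium-dependent phospholipid-binding annexin, crossed in the same way, from 208, 211, 197 and 198 CPM in WT and 168, 165 and 174 CPM in KO in control medium to 628, 600.3, 615 and 598 CPM in WT and 644, 657 and 661 CPM in KO in CM (0.37 ± 0.05 (SE, adjusted p = 0.00148)). Psmd8, a subunit of the proteasome lid, was at 212, 224, 197 and 190.3 CPM in WT and 168, 185 and 183 CPM in KO in control medium. Psmd8 in CM was at 305, 304, 293 and 278 CPM in WT and 339.6, 328.3 and 347 CPM in KO (0.40 ± 0.06 (SE, adjusted p = 0.00293)). Of 33 tested proteasome genes, 1 was called higher (Psmd8) and 1 lower (Psmb7), and the median was 0.01. At an unadjusted p below 0.05, 6 of them were higher and 3 lower.

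Cd274, which encodes the T cell inhibitory ligand PD-L1 (chr19:29367455-29388095, plus strand), parted in CM. In control medium it was at 39.4, 35.7, 40.3 and 40.3 CPM in WT and 35.0, 32.7 and 37.1 CPM in KO, where the genotypes overlapped. In CM it was at 72.3, 73.1, 72.4 and 71.0 CPM in WT and 85.6, 86.4 and 88.0 CPM in KO, with every KO library above every WT library. The response was 0.89 ± 0.05 in WT and 1.31 ± 0.05 in KO, and the difference was 0.42 ± 0.07 (SE, adjusted p = 0.00631), 0.36 against WT libraries 1 and 2 and 0.48 against WT libraries 3 and 4. Of 26 tested genes of the checkpoint and costimulatory list, 2 were called higher and none lower. They were Cd274 and Spp1, the secreted phosphoprotein gene given above. The median of the list was 0.10, and it was 0.04 without KO control library 1, 0.05 without KO CM library 3 and 0.07 without WT control library 2.

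Clec10a, a galactose-binding C-type lectin of alternatively activated macrophages, differed by its start: 64.4, 73.7, 67.8 and 66.0 CPM in WT and 52.9, 55.9 and 51.7 CPM in KO in control medium, with KO below all WT, and 308, 283, 281 and 299.8 CPM in WT and 313, 307 and 311 CPM in KO in CM, with overlap (0.43 ± 0.07 (SE, adjusted p = 0.00465)). Of 34 tested genes of alternative activation, 1 was called higher (Clec10a) and 1 lower (Folr2), and 8 were higher and 4 lower at an unadjusted p below 0.05. Their median difference was 0.15, but the median level of the list, taken library by library, was 0.25 ± 0.13 (SD, n = 4) in WT CM and 0.20 ± 0.08 (n = 3) in KO CM, from -0.26 ± 0.03 and -0.30 ± 0.02 in control medium. By these levels the list rose with CM about equally in both genotypes, so the median of 0.15 is not read as a larger response in KO. Mrc1, the mannose receptor, had 0.16 ± 0.09 (SE, adjusted p = 0.423) and Il4ra, the IL-4 receptor alpha chain, 0.06 ± 0.06 (SE, adjusted p = 0.717). Arg1, the arginine-degrading arginase, was nearly silent in control medium, at 0, 0, 0.0972 and 0.0476 CPM in WT and 0.291, 0.0526 and 0 CPM in KO, and was at 59.3, 73.4, 61.3 and 78.9 CPM in WT and 194, 182 and 198 CPM in KO in CM. Its KO values in CM were above all WT values, and its fitted difference of responses is not read as a change, in size or sign, because the control level rests on a few counts. Tmem154, a membrane protein of little known function, stayed below WT in both media (38.0, 38.3, 44.4 and 45.0 CPM in WT and 25.4, 27.3 and 26.6 CPM in KO, then 122, 124, 131 and 136.7 CPM in WT and 109, 109 and 116 CPM in KO), less so in CM (0.44 ± 0.06 (SE, adjusted p = 0.00156)). The aminopeptidase N gene Anpep was at 1174, 1117, 1417 and 1329 CPM in WT and 942, 926 and 902 CPM in KO in control medium. Anpep in CM was at 1523, 1534, 1875 and 1845 CPM in WT and 1635, 1608 and 1638 CPM in KO (0.39 ± 0.05 (SE, adjusted p = 0.00111)), and the activating receptor gene Pira1 had 0.38 ± 0.06 (SE, adjusted p = 0.00373). Pira1 belongs to a family of near-identical genes, so its counts are uncertain, and it was not called from its most-counted exon (edgeR adjusted p = 0.0565).

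Monocyte-attracting chemokines had large estimates with large errors. Of 14 CC chemokine genes, 11 rose with CM in KO and 10 in WT, none was called for the difference, and 3 were higher at an unadjusted p below 0.05. With the trend over transcript length removed, Ccl2 and Ccl3 were called higher. Ccl2 had 0.78 ± 0.19 (SE, adjusted p = 0.0507) and Ccl7 1.58 ± 0.43 (SE, adjusted p = 0.074). Ccl2 was at 2.87, 2.78, 2.38 and 3.53 CPM in WT and 1.78, 2.37 and 2.22 CPM in KO in control medium. Ccl2 in CM was at 31.5, 35.5, 28.4 and 35.8 CPM in WT and 40.1, 37.0 and 45.7 CPM in KO. Ccl7 was at 0.847, 0.900, 0.304 and 0.940 CPM in WT and 0.400, 0.245 and 0.340 CPM in KO in control medium. Ccl7 in CM was at 9.25, 13.9, 8.06 and 10.3 CPM in WT and 11.2, 12.5 and 17.3 CPM in KO. The CXC chemokine list of 11 genes had 0 called in either direction, 1 higher and 2 lower at an unadjusted p below 0.05, and a median of -0.25 that was -0.12 against WT libraries 1 and 2 and -0.42 against 3 and 4. Without KO control library 1 that median was 0.02, without KO control library 3 -0.15, and without WT control library 4 -0.16, so its sign rested on KO control library 1.

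The chains of the main MHC class II molecules, which present peptides to CD4+ T cells, fell with CM in both genotypes and fell further in KO. Of 19 tested genes of class II presentation, 8 were called lower with CM in WT and 10 in KO, and for the difference 3 were called lower (H2-Eb1, H2-Aa and H2-Ab1) and none higher. At an unadjusted p below 0.05, 8 were lower and none higher, and the median was -0.17. H2-Eb1 (chr17:34305867-34316674, plus strand) was in control medium at 46.2, 52.7, 61.0 and 53.7 CPM in WT and 79.7, 81.7 and 68.8 CPM in KO, and in CM at 19.2, 17.1, 20.1 and 21.6 CPM in WT and 17.3, 17.9 and 18.3 CPM in KO. H2-Ab1 (chr17:34257689-34269419, plus strand) was in control medium at 70.1, 81.3, 75.4 and 67.5 CPM in WT and 123, 122 and 104 CPM in KO, and in CM at 23.2, 27.8, 26.9 and 23.8 CPM in WT and 27.9, 26.3 and 25.5 CPM in KO. KO libraries lay above all WT libraries in control medium for both genes and overlapped them in CM. H2-Aa (chr17:34282744-34287823, minus strand) was at 55.0, 60.8, 72.1 and 65.9 CPM in WT and 83.3, 81.4 and 71.5 CPM in KO in control medium. H2-Aa in CM was at 21.9, 20.0, 28.0 and 26.5 CPM in WT and 20.7, 19.9 and 21.8 CPM in KO, with 1 KO control library inside the WT range. The differences were -0.65 ± 0.10 (SE, adjusted p = 0.00373) for H2-Eb1, -0.60 ± 0.11 (SE, adjusted p = 0.0108) for H2-Ab1 and -0.52 ± 0.09 (SE, adjusted p = 0.00943) for H2-Aa. From the most-counted exon alone H2-Aa had -0.39 and was not called (edgeR adjusted p = 0.113). Ciita, the master coactivator of these genes, responded by -1.93 in WT and -2.42 in KO and had -0.49 ± 0.14 (SE, adjusted p = 0.0931). Cd74, the invariant chain, responded by -1.11 in WT and -1.44 in KO and had -0.33 ± 0.09 (SE, adjusted p = 0.0645). Neither was called. The 17 dendritic cell markers summed to 516 to 587 CPM in WT control, 532 to 588 in WT CM, 574 to 636 in KO control and 567 to 603 in KO CM, with Ly6d at 0 in every library. Their part in the class II difference was not tested.

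Because these class II genes moved together, the 250 bases before the start of H2-Eb1 and H2-Aa are shown, from RefSeq on GRCm38.p6 (chr17:34305617-34305866, plus strand, and chr17:34287824-34288073, minus strand). Capitals mark CTGATTGG, the inverted CCAAT element known as the Y box of class II promoters, searched on both strands. It lies 62 to 55 bases before the start in H2-Eb1 and 51 to 44 bases before it in H2-Aa.
H2-Eb1: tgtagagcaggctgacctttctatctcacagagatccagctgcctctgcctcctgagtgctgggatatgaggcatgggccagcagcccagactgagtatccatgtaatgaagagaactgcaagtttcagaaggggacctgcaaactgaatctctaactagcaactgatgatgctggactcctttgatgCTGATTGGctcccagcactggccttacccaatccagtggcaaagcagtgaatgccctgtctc
H2-Aa: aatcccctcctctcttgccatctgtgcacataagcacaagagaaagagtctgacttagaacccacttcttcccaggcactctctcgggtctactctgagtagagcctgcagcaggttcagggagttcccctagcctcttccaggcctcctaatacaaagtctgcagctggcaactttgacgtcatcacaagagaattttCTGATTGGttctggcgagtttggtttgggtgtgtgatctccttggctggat
The same letters occur in 1258 of 32851 mouse promoters of this length (3.83%) and in 4 of the 23 promoters that 16 class II list genes have in the table (H2-Aa, H2-Eb1, H2-Eb2 and H2-Oa). A match of letters is a description and does not show binding.

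Other genes repressed by CM fell further in KO, with higher levels in KO control medium for those given by library. Ms4a7, a multi-pass membrane protein of macrophages (chr19:11321039-11336146, minus strand), was at 774, 789.6, 909.6 and 917 CPM in WT and 1052, 1019 and 1097 CPM in KO in control medium. Ms4a7 in CM was at 207, 209, 263 and 257 CPM in WT and 211, 226 and 211 CPM in KO. KO lay above WT in the first and overlapped it in the second (-0.43 ± 0.06 (SE, adjusted p = 0.00119)). Folr2, the folate receptor beta of resident and alternatively activated macrophages (chr7:101839988-101857194, minus strand), was at 186, 170.4, 144 and 151 CPM in WT and 230.0, 221 and 226 CPM in KO in control medium. With CM, Folr2 was at 138, 129.8, 109 and 105 CPM in WT and 124, 125 and 127 CPM in KO (-0.41 ± 0.06 (SE, adjusted p = 0.00173)). Col4a2, a basement membrane collagen chain, was at 12.3, 10.9, 12.7 and 12.9 CPM in WT and 20.0, 23.5 and 21.0 CPM in KO in control medium. With CM, Col4a2 was at 7.596, 7.31, 9.02 and 9.04 CPM in WT and 9.82, 8.23 and 6.97 CPM in KO (-0.81 ± 0.14 (SE, adjusted p = 0.00705)). From its most-counted exon Col4a2 had -0.22 and was not called (edgeR adjusted p = 0.709). Engase, a cytosolic glycan-cleaving enzyme, had -0.46 ± 0.08 (SE, adjusted p = 0.00881), with responses of -1.35 in WT and -1.81 in KO, and was not called from its most-counted exon (edgeR adjusted p = 0.121). Adgre1, which encodes the macrophage marker F4/80, was above WT in KO control and below it in KO CM: 3614, 3307, 3278 and 3328 CPM in WT and 3695, 3649.9 and 3717 CPM in KO, then 2116, 2029.6, 2070.1 and 2175 CPM in WT and 1808, 1871 and 2023 CPM in KO (-0.27 ± 0.06 (SE, adjusted p = 0.0415)). Adgre1 kept its call in 4 of 14 fits that left out a library, and from the most-counted exon it had -0.02 (edgeR adjusted p = 0.92).

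Polyamine genes had 3 called members. Of 19 tested genes of the arginine and polyamine pathway, 3 were called lower and none higher, 5 were lower and 2 higher at an unadjusted p below 0.05, and the median was 0.02 (-0.03 to 0.04 over fits that left out a library). With the length trend removed Smox and Oaz1 were called lower and Ass1, argininosuccinate synthase, higher. Smox, the spermine oxidase gene, was at 80.5, 90.2, 79.4 and 79.7 CPM in WT and 104, 118 and 99.0 CPM in KO in control medium, with KO above all WT libraries, and at 73.6, 65.6, 68.1 and 60.6 CPM in WT and 59.4, 69.3 and 58.7 CPM in KO in CM, with overlap (-0.48 ± 0.10 (SE, adjusted p = 0.0266)). Oaz1 and Oaz2, which encode antizymes that restrain ornithine decarboxylase, had -0.44 ± 0.09 (SE, adjusted p = 0.0338) and -0.32 ± 0.07 (SE, adjusted p = 0.0439). Leaving out 1 library ended these calls in 9 of 14 fits for Smox, 9 for Oaz1 and 11 for Oaz2, and from the most-counted exon Oaz1 and Oaz2 were not called (edgeR adjusted p = 0.095 and 0.0755). The pseudogene Oaz1-ps was also called lower (-0.49 to -0.34 over fits that left out a library), so the Oaz1 counts are uncertain. Of 39 tested genes of the ATF4 and amino acid response, 2 were called higher and none lower, with a median of 0.07 (0.03 without WT control library 4, 0.04 without KO control library 3 and 0.05 without WT CM library 4). They were Atf4, the transcription factor itself (0.33 ± 0.07 (SE, adjusted p = 0.0369)), and Mthfd2, a mitochondrial folate enzyme (0.54 ± 0.13 (SE, adjusted p = 0.0457)). Those calls were lost in 10 and 13 of 14 such fits, and Mthfd2 was not called from its most-counted exon (edgeR adjusted p = 0.168).

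A smaller set of genes had responses of opposite sign, or close to 0 in 1 genotype. Hip1, a clathrin adaptor, responded by -0.43 in WT and 0.02 in KO, from 105, 100.4, 93.0 and 101 CPM in WT and 88.4, 90.9 and 90.3 CPM in KO in control medium to 81.1, 76.4, 69.3 and 69.1 CPM in WT and 94.5, 88.5 and 90.7 CPM in KO in CM (0.45 ± 0.06 (SE, adjusted p = 0.00148)). P2ry14, the receptor for UDP-sugars, responded by -0.06 in WT and 0.36 in KO (0.43 ± 0.07 (SE, adjusted p = 0.00465)). Agbl5, which encodes a tubulin deglutamylase, went from 28.6, 32.1, 32.8 and 29.9 CPM in WT and 40.5, 38.2 and 37.3 CPM in KO in control medium to 38.9, 37.0, 39.1 and 37.5 CPM in WT and 21.4, 31.7 and 23.2 CPM in KO in CM, so that KO lay above all WT libraries in control medium and below all of them in CM (-0.91 ± 0.13 (SE, adjusted p = 0.00229)). Ufc1, the conjugating enzyme of the UFM1 system, was at 79.7, 84.3, 79.9 and 79.7 CPM in WT and 84.2, 88.3 and 90.0 CPM in KO in control medium. With CM, Ufc1 was at 91.0, 86.6, 93.1 and 90.3 CPM in WT and 75.2, 77.6 and 71.7 CPM in KO, and KO lay below all WT libraries in CM (-0.38 ± 0.06 (SE, adjusted p = 0.00465)). From its most-counted exon Ufc1 had -0.16 and was not called (edgeR adjusted p = 0.426). Zfas1, a noncoding host of small nucleolar RNAs, was at 24.1, 23.9, 29.3 and 25.7 CPM in WT and 33.1, 27.6 and 30.4 CPM in KO in control medium. With CM, Zfas1 was at 25.8, 20.5, 28.2 and 25.2 CPM in WT and 17.5, 18.4 and 14.1 CPM in KO, with KO again below all WT libraries in CM (-0.82 ± 0.13 (SE, adjusted p = 0.00516)). Tomm7, a short subunit of the mitochondrial import pore, was at 31.6, 38.0, 33.9 and 32.1 CPM in WT and 48.5, 48.4 and 55.1 CPM in KO in control medium. With CM, Tomm7 was at 44.0, 43.4, 41.5 and 37.1 CPM in WT and 36.1, 39.9 and 26.8 CPM in KO (-0.86 ± 0.14 (SE, adjusted p = 0.00516)). The ribosomal protein paralog gene Rpl22l1 was at 62.2, 59.7, 43.1 and 45.1 CPM in WT and 84.0, 89.7 and 82.1 CPM in KO in control medium. With CM, Rpl22l1 was at 102, 79.5, 68.5 and 68.4 CPM in WT and 79.0, 79.5 and 65.9 CPM in KO (-0.80 ± 0.10 (SE, adjusted p = 0.00119)).

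Respiratory chain and ribosomal protein genes had medians below 0, as had short transcripts in general. Of 51 nuclear genes of oxidative phosphorylation, 42 were called higher with CM in WT and 17 in KO. For the difference 0 were called in either direction with edgeR, 20 were lower and none higher at an unadjusted p below 0.05, and the median was -0.14. Of 69 cytosolic ribosomal protein genes, 58 rose in WT and 36 in KO, 5 were called lower for the difference and none higher, and the median was -0.10. That ribosomal median was -0.03 against WT libraries 1 and 2 and -0.16 against WT libraries 3 and 4. Rps16 had -0.41 ± 0.08 (SE, adjusted p = 0.0196), Rps13 -0.38 ± 0.07 (SE, adjusted p = 0.0196) and Rpl31 -0.32 ± 0.07 (SE, adjusted p = 0.0283). With the length trend removed 2 of these 5 calls, Rps16 and Rps13, were left, and Rpl31 had an edgeR adjusted p of 0.0785. Rpl31 kept its call in 7 of 14 fits that left out a library and Rps16 and Rps13 in 11, and from the most-counted exon Rpl31 and Rps13 were not called. Ribosomal protein genes have many pseudogene copies, so their counts are uncertain. The difference of responses followed the length of the longest annotated transcript over 13019 genes with a length: its median was -0.14 in the 485 genes under 750 bases and 0.06 in the 1698 genes of 6000 bases or more. Against WT libraries 1 and 2 the medians ran from -0.13 to 0.03, level over the last 2 length classes, and against 3 and 4 from -0.15 to 0.08. Removing each library's trend over length left a median of -0.07 for oxidative phosphorylation, -0.01 for ribosomal proteins, 0.21 for cholesterol synthesis, 0.25 for DNA replication and -0.14 for MHC class II. It kept 121 of the 164 calls, among 145.

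**Figure D4:**
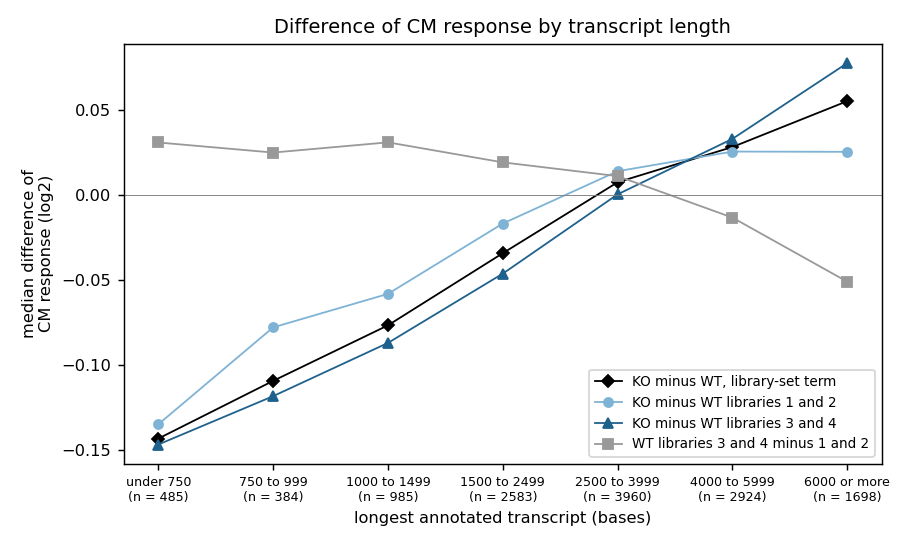
Median difference of CM response (log2) in 7 classes of transcript length, with the number of genes in each. The KO minus WT medians rise from -0.14 under 750 bases to 0.06 at 6000 bases or more with the library-set term, they are level over the last 2 classes against WT libraries 1 and 2, and the difference between the WT sets runs from 0.03 to -0.05.

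Of the 7 called genes with a difference of 2-fold or more, Rn45s and Lars2 had the highest levels. Rn45s, the precursor of ribosomal RNA, which poly(A) selection should largely remove, was at 1405, 1795, 203 and 280.0 CPM in WT and 861, 825 and 861 CPM in KO in control medium. Rn45s in CM was at 679, 789, 158 and 166 CPM in WT and 1588, 1076 and 1180.2 CPM in KO. It was lower with CM in both WT sets and higher with CM in KO (1.45 ± 0.19 (SE, adjusted p = 0.00119)). WT libraries 3 and 4 were far below all others in both media. Lars2, the mitochondrial leucyl-tRNA synthetase gene, ran with it, at 238, 225, 56.7 and 58.3 CPM in WT and 120.1, 109 and 142 CPM in KO and then 174, 150.1, 45.8 and 43.6 CPM in WT and 257, 199 and 199.6 CPM in KO (1.26 ± 0.13 (SE, adjusted p = 0.000107)). Without the term the differences were 1.63 ± 0.95 (adjusted p = 0.719) for Rn45s and 1.31 ± 0.75 (adjusted p = 0.718) for Lars2. The difference in level between short and long transcripts was -0.10 ± 0.11 (SD, n = 4) in WT control, 0.03 ± 0.07 (n = 4) in WT CM, 0.08 ± 0.04 (n = 3) in KO control and 0.05 ± 0.04 (n = 3) in KO CM. The part of ribosomal RNA carryover, RNA quality and depth in the length pattern, or in the calls of short genes, was not tested.

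Some programs often linked to EZH2 or to tumor medium had no called member, where 1.23% of all genes were called. At that share lists of this size would be likely to hold few calls or none, so the absence is not a result about these programs. Of 15 tested developmental transcription factors (of 96 listed), 0 were called with edgeR and 0 had an unadjusted p below 0.05, with a median of -0.04 (-0.16 to 0.07 over fits that left out a library). Of 35 PRC2 and PRC1 subunit genes, 0 were called, 3 were lower at an unadjusted p below 0.05 (Cbx7, Cbx8 and Cbx6, which encode chromodomain subunits), and the median was -0.01. Interferon response genes fell with CM, 51 of 67 in WT and 48 in KO, and 0 were called for the difference (4 higher and 2 lower at an unadjusted p below 0.05). Their median was 0.20 against WT libraries 1 and 2 and -0.15 against WT libraries 3 and 4, so its sign depended on which WT libraries were used. Classical activation genes had a median of 0.02 (-0.05 to 0.07 over fits that left out a library), and Tnf had 0.04 ± 0.23 (SE, adjusted p = 0.956) and Il1b -0.91 ± 0.47 (SE, adjusted p = 0.348). A p above the threshold does not show that the genotypes responded alike.

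**Figure D5:**
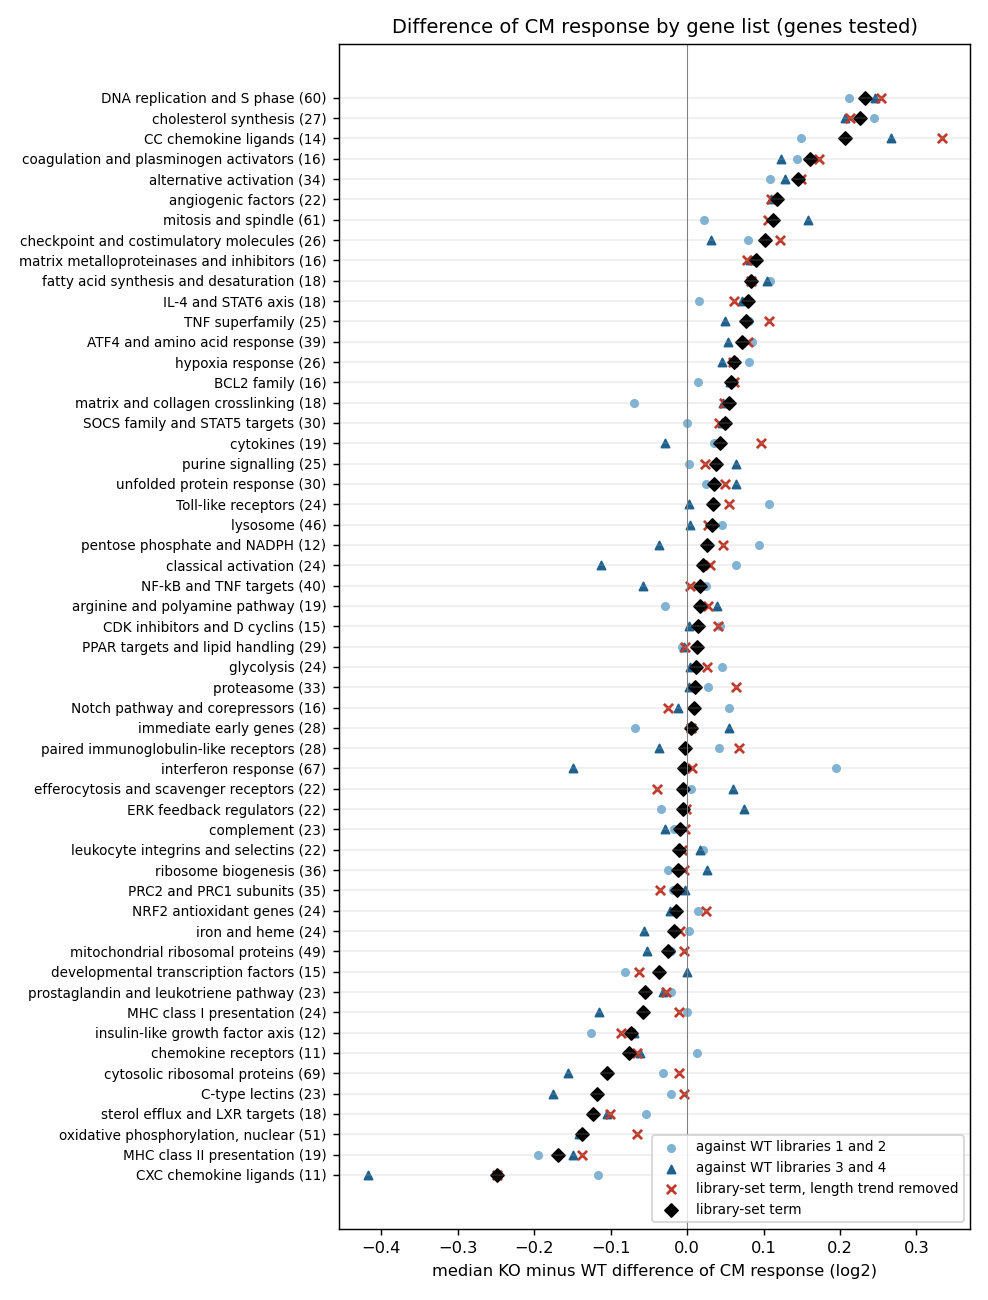
Median difference of CM response (log2, KO minus WT) of the 54 gene lists with 10 or more tested genes, with the library-set term (black diamonds), after removal of the length trend (crosses), and against each WT set. DNA replication and cholesterol synthesis lie highest at 0.23, MHC class II and CXC chemokines lowest at -0.17 and -0.25 (the CXC median is 0.02 without KO control library 1), and the interferon medians of the WT sets lie on opposite sides of 0.

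The other 5 called genes with a difference of 2-fold or more were weakly expressed and are given as levels, having been chosen after their values were seen. Fam20a, which encodes a pseudokinase of the secretory pathway, was at 0.521, 0.176, 0.219 and 0.464 CPM in WT and 0.0728, 0.105 and 0.0226 CPM in KO in control medium. Fam20a in CM was at 3.64, 4.16, 3.65 and 3.94 CPM in WT and 3.35, 4.36 and 5.01 CPM in KO. Sphk1, sphingosine kinase 1, was at 0.0869, 0.313, 0.121 and 0.167 CPM in WT and 0.0364, 0 and 0 CPM in KO in control medium. With CM, Sphk1 was at 1.05, 1.23, 1.41 and 1.32 CPM in WT and 1.17, 1.23 and 1.71 CPM in KO. Arhgef19, a guanine nucleotide exchange factor gene, was at 0.239, 0.0783, 0.0364 and 0.143 CPM in WT and 0.0364, 0.0175 and 0 CPM in KO in control medium. With CM, Arhgef19 was at 0.0752, 0.151, 0.0394 and 0.0366 CPM in WT and 0.381, 0.383 and 0.481 CPM in KO. Cfhr2 was at 0.0869, 0.352, 3.21 and 4.38 CPM in WT and 0.800, 0.456 and 0.792 CPM in KO in control medium. With CM, Cfhr2 was at 1.40, 1.08, 10.6 and 9.52 CPM in WT and 0.533, 0.680 and 0.316 CPM in KO. LOC101055843 was at 2.65, 2.27, 5.90 and 6.80 CPM in WT and 1.87, 2.91 and 4.26 CPM in KO in control medium and 1.25, 0.992, 5.63 and 2.08 CPM in WT and 0.431, 0.468 and 0.149 CPM in KO in CM. For Fam20a and Sphk1 all KO libraries were below all WT libraries in control medium, and the genotypes overlapped in CM.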

How the data were processed

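RNA libraries were prepared with a stranded mRNA kit and sequenced as paired reads of 150 bp, per the labels' protocols. The authors deposited raw counts per exon. The submitters' processing notes name HISAT2 and mm10. Versions, the counting tool, the annotation and the strand setting are not given in the sources used here, so overlapping and antisense genes cannot be told apart. The deposited table lists 427386 exon entries over 25239 gene symbols. Repeats of an exon within a gene (196941 entries, 48.6% of the count) were dropped. Gene counts are sums over 230445 distinct exons. A fragment spanning exons can be counted in each, so counts are not fragments.

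Groups and replicate numbers came from the labels. The test was edgeR's quasi-likelihood test (version 4.0.16, R 4.3.3) with TMM scaling and an expression filter (minimum count 10, minimum total 15), in 1 fit of all 14 libraries with a mean per group. A second fit added a term for WT libraries 3 and 4. Benjamini-Hochberg adjustment ran over 13311 genes, with calls at 0.05. CPM are per 1 M of the TMM-scaled total, and standard errors are approximate. The members, the 70 gene lists and the tests were chosen with earlier results of these data known. Genes were named by this rule: Ezh2, the 12 smallest p in each direction among calls that reach 4 CPM on average in a group with the same sign against both WT sets, up to 4 called members of each list, and a panel of macrophage genes. Since the fit without the term called no gene, the rule was applied to the fit with it, a choice made after the values were seen; it gave 78 genes, some of which are not reported here. Uncalled list members named beside them were chosen after their values were seen. Lists are described by counts and medians, without a test. Transcript lengths and gene positions are from GENCODE on GRCm38, matched by symbol for 97.8% of tested genes. Script steps were tested on simulated data. Alternatives as a test were DESeq2 1.42.0 and limma-voom 3.58.1, the latter with a quality weight for each library. Other alternatives were size factors by the DESeq2 method (computed in edgeR), library totals, other filters and thresholds, and other gene counts. Either WT set alone, a replicate block, and leaving out each library were also run. Alternatives of the fit with the term, removal of the length trend, and leaving Rn45s and Lars2 out were added after the data were seen.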

Additional observations from a re-analysis of the deposited data

Results flagged for a closer look

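The CM response differed between genotypes for 164 genes by edgeR's test of the difference with the library-set term, and for 0 genes without it. These genes are described above.

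Among 149 groups of 4 WT libraries of the named genes, 8 had a library far from the other 3 by Dixon's criterion. Chance gives about 1 in 20 for 4 values drawn from 1 distribution. Each WT group held libraries of both sets, so the 8 are not read against that rate. In WT control library 2, Ufc1 was at 84.3 CPM (others 79.7 to 79.9), Atf4 at 53.5 (50.7 to 51.2), Lilrb4a at 643 (706 to 718) and Smox at 90.2 (79.4 to 80.5). In WT control library 1, Itga4 was at 408 CPM (380.3 to 382) and Adgre1 at 3614 (3278 to 3328). Rbl1 was at 35.2 CPM in WT control library 3 (32.4 to 32.5), and Mmp27 at 29.9 CPM in WT CM library 4 (31.5 to 31.8). KO groups hold 3 libraries and were not tested in this way.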

How the results depend on the processing

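Without the library-set term, edgeR called 0 genes. It called 164 with the term (87 higher, 77 lower), 167 with a term that may differ by medium (95, 72), 11 with WT libraries 1 and 2 alone as WT (9, 2), and 54 with WT libraries 3 and 4 alone (31, 23). DESeq2 called 84 (60, 24) and limma-voom 27 (19, 8). Fits that left out a library called 0 to 2 genes, 0 to 2 higher and 0 to 1 lower. The other alternatives called 0, apart from the replicate block described here. The cause of these differences was not tested.

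With the term, testing all genes with a count gave 694 calls (322 higher, 372 lower), DESeq2 584 (342, 242), all exon entries 100 (42 lower), library totals 53 higher, an adjusted p below 0.1 457 (256, 201) and below 0.01 31 (18, 13). Leaving out a library gave 51 (without KO control library 2) to 290 calls (without WT control library 2), with 29 to 160 higher and 22 to 142 lower, and 38 of the 164 genes were called in all 14 such fits (21 higher, 17 lower). The most-counted exon of each gene gave 175 calls, only 69 of them among the 164. DESeq2 size factors, limma-voom, a filter of 1 CPM, length removal, the term that may differ by medium and leaving out Rn45s and Lars2 stayed within 1.5 times. The called counts for CM in WT and CM in KO also stayed within 1.5 times under every alternative run, but library totals split them into 1957 higher and 3501 lower in WT and 1941 and 3624 in KO.

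The replicate number pairs no libraries across both genotypes: deviations from the group mean correlated between the media, number by number, with 0.552, 0.513, 0.672 and 0.677 in WT, as did libraries of 1 set with other numbers (0.488 to 0.631), and in KO with -0.007, -0.107 and 0.047. A replicate block nested in genotype called 205 genes (99 higher, 106 lower), 130 of them among the 164, and a block shared by the genotypes called 0.

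Some uncalled estimates, and Lilrb4a and Psap, changed sign. From the most-counted exon, Lilrb4a had -0.00204 without the term and -0.0039 with it, and Psap -0.0106 and -0.0102. Ezh2 had 0.0057 against WT libraries 3 and 4 alone. Against WT libraries 1 and 2, Cd163 had 0.014 and Lyz2 0.14; with the length trend removed Lyz2 had 0.0577 without the term and 0.0553 with it. Over fits that left out a library, without and with the term, Cd163 ran from -0.10 to 0.045 and -0.10 to 0.043, Tnf from -0.11 to 0.20 in both, and Lyz2 from -0.0624 to 0.0461 and -0.0784 to 0.0403. The fitted values of Arg1, Retnla and Il6 rest on a few counts or none in control medium, depend on how zeros are handled, and are not read as changes in size or sign. They are listed for completeness: Arg1 -1.80 with a term that may differ by medium in both designs, -4.06 against WT libraries 1 and 2, -0.019 with DESeq2 and -0.49 with DESeq2 and the term. Over fits that left out a library, without and with the term, Arg1 ran from -0.86 to 2.07 and -0.86 to 2.06, Retnla from -3.29 to 0.64 and -3.35 to 0.57, and Il6 from -2.35 to 2.96 and -2.31 to 2.94.

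Depth was uneven: WT libraries 3 and 4 carry up to 85.8 M counts against 40.2 M in the shallowest KO library.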
